A study of Mus musculus with 2 samples.

Results

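Immediate early genes were followed through the islet single-cell data by 10 members, which encode the AP-1 subunits Fos, Fosb, Jun, Junb and Jund, the transcription factors Egr1, Atf3 and Nr4a1, the nuclear protein Ier2 and the phosphatase Dusp1. They were matched by symbol among the 22383 features of the series. Raw UMIs, the molecular tags that each mark 1 captured transcript, were summed by library and by class of barcode, and levels were given as CPM, the UMIs per 1000000 UMIs of the same barcodes. The series holds 2 libraries of pancreatic islets from mice aged 5 weeks, 1 for the group with the genotype label wildtype (here control) and 1 for the group TBL/RBKO. Each library pooled 150 islets from 4 mice, so there is 1 sample per group. No test and no p-value was possible, and every interval below is a 95% interval for counting error alone.

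Mice of the TBL/RBKO group carried Cre recombinase inserted at the Ins1 locus together with floxed Tbl1x and Tbl1xr1, so that deletion was directed to β-cells and not to other islet cells. Both genes encode co-factors that bridge transcription factors and chromatin-modifying complexes. Controls were littermates without Cre, on the C57BL/6N background. After isolation, islets of both groups spent a night in culture (37 °C, 10% serum) and were then taken apart with an enzyme, and all members were read after these same steps.

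Barcodes were kept with more than 2500 detected genes and less than 10% mitochondrial UMIs, which left 4747 of 7067 control barcodes (230508816 UMIs) and 4179 of 5833 barcodes of the other library (175863899 UMIs). The paper also required fewer than 6000 detected genes, a limit used here only as an alternative. Of the kept barcodes 38.0% in control and 39.5% in TBL/RBKO had 6000 genes or more. A barcode joined the class of its largest hormone (Ins1 plus Ins2, Gcg, Sst or Ppy) from 100 UMIs per 10000, and the rest were non-hormone barcodes. The insulin class held 2877 control and 1338 TBL/RBKO barcodes, the Gcg class 1284 and 1546, the Sst class 223 and 374, the Ppy class 259 and 495, and non-hormone barcodes numbered 104 and 426. All 9 β-cell markers were at 10 CPM or more in the insulin class of both libraries, all 7 α-cell markers in the Gcg class and all 5 δ-cell markers in the Sst class. These lists include the hormones that define the classes, and 10 CPM does not set the classes apart. In the Gcg, Sst and Ppy classes 8, 8 and 8 β-cell markers also passed in control, and 6, 7 and 7 in TBL/RBKO. All 7 α-cell markers also passed in the Ppy class of both libraries. The insulin classes were not alike. Insulin took 49.6% of their UMIs in control and 27.9% in TBL/RBKO, and a second hormone passed 100 UMIs per 10000 in 16.3% and 60.8% of their barcodes. The 2 libraries shared 14 barcode sequences.

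The targeted genes went against the label in the insulin class. Tbl1x stood at 96.9 CPM in control and at 351 CPM in the library labelled TBL/RBKO, and Tbl1xr1 at 20.0 and 129 CPM. Both were higher in that library in the other classes too. The log2 ratios in the Gcg, Sst, Ppy and non-hormone classes were 0.33, 0.43, 1.83 and 0.43 for Tbl1x. For Tbl1xr1 they were 0.61, 0.74, 1.91 and 1.11. The position of these UMIs on the transcripts is not given by the counts, so UMIs beyond the floxed exons would check nothing. The added Cre features were at 0 UMIs in the control insulin class, which allows up to 0.0165 CPM (3 UMIs), and at 3108 UMIs in the other, in the direction of the labels. Every direction below is that of the library labelled TBL/RBKO against the control library.

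Immediate early genes are transcribed within minutes of a stimulus, without new protein synthesis, from promoters that stand ready. Calcium and cAMP signals reach them through CREB at the cAMP response element, and growth factor and MAP kinase signals through the serum response factor at the CArG box. In β-cells glucose, depolarisation and incretins are classical inducers, and taking a tissue apart with enzymes also induces them. Fos and Jun proteins pair to form AP-1, while Dusp1 removes the phosphates that activate MAP kinases and so feeds back on the same pathway.

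The promoter table of RefSeq (build GRCm38.p6) held 8 of the 10 members, and 6 of them are shown, picked after their values were seen: Fos, Fosb, Junb and Dusp1, which were among the lowest in ratio at the highest insulin, Jun, which was near equal there, and Jund, which was lower by less. Each run is the 250 bases before the start site, 5′ to 3′ on the strand of the gene, with the cAMP response half-site TGACG, or its reverse complement, in capitals.
Fos (chr12:85473640-85473889, plus strand): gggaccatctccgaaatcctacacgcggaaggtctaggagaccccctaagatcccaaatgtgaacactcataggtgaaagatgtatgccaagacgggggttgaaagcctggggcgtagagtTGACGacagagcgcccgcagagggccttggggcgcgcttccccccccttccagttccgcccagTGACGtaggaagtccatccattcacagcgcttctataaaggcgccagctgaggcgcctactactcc
Fosb (chr7:19310046-19310295, minus strand): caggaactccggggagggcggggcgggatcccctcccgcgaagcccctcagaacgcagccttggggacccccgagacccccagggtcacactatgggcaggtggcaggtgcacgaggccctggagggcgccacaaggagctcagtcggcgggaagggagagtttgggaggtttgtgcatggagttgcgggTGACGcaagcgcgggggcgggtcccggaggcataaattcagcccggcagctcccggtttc
Junb (chr8:84978749-84978998, minus strand): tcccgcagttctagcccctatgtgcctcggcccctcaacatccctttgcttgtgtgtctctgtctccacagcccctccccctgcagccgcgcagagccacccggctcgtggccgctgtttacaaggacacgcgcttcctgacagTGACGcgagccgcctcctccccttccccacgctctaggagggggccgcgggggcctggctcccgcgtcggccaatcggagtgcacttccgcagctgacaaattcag
Dusp1 (chr17:26508473-26508722, minus strand): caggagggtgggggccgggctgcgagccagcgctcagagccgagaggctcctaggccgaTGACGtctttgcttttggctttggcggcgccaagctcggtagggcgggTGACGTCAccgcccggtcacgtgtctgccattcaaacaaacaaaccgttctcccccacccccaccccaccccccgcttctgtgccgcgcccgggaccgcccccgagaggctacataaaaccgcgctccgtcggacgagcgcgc
Jun (chr4:95052223-95052472, minus strand): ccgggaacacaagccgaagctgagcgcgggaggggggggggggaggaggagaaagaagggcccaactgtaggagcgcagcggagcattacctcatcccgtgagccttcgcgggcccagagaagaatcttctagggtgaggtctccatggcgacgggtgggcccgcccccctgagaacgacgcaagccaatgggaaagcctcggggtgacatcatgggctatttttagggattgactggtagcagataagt
Jund (chr8:70697489-70697738, plus strand): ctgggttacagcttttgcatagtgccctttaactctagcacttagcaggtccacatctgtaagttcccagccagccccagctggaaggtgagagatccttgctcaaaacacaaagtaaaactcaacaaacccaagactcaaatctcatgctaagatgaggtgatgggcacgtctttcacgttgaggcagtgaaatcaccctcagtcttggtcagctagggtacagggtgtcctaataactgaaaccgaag

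TGACG, searched on both strands, was present in 6 of the 8 promoters (Fos, Fosb, Junb, Dusp1, Nr4a1 and Atf3) and in 17.8% of the 32851 promoters of the table. The matches of Fos began 129 and 66 bases before its start site, that of Junb 106 bases and that of Fosb 60 bases before. Nr4a1 held 4 matches and Dusp1 3. The full element TGACGTCA, which contains the half-site on each strand, was in the Dusp1 promoter alone among the 8 and in 1.55% of all promoters. Jun and Jund held no TGACG in this window. In the highest insulin range given below, the log2 ratio of TBL/RBKO over control was -0.25 for Nr4a1, which is not shown, and -0.29 for Jund. A link between matches and ratios was not tested. The early growth response core GCGTG was in 4 of the 8 (28.2% of all promoters). TGACTCA, to which AP-1 binds, was in 0 of the 8 (4.46%), as was the CArG box (1.47%). A match is a description of the letters in the window, and no match says nothing of a factor's action.

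**Figure D1:**
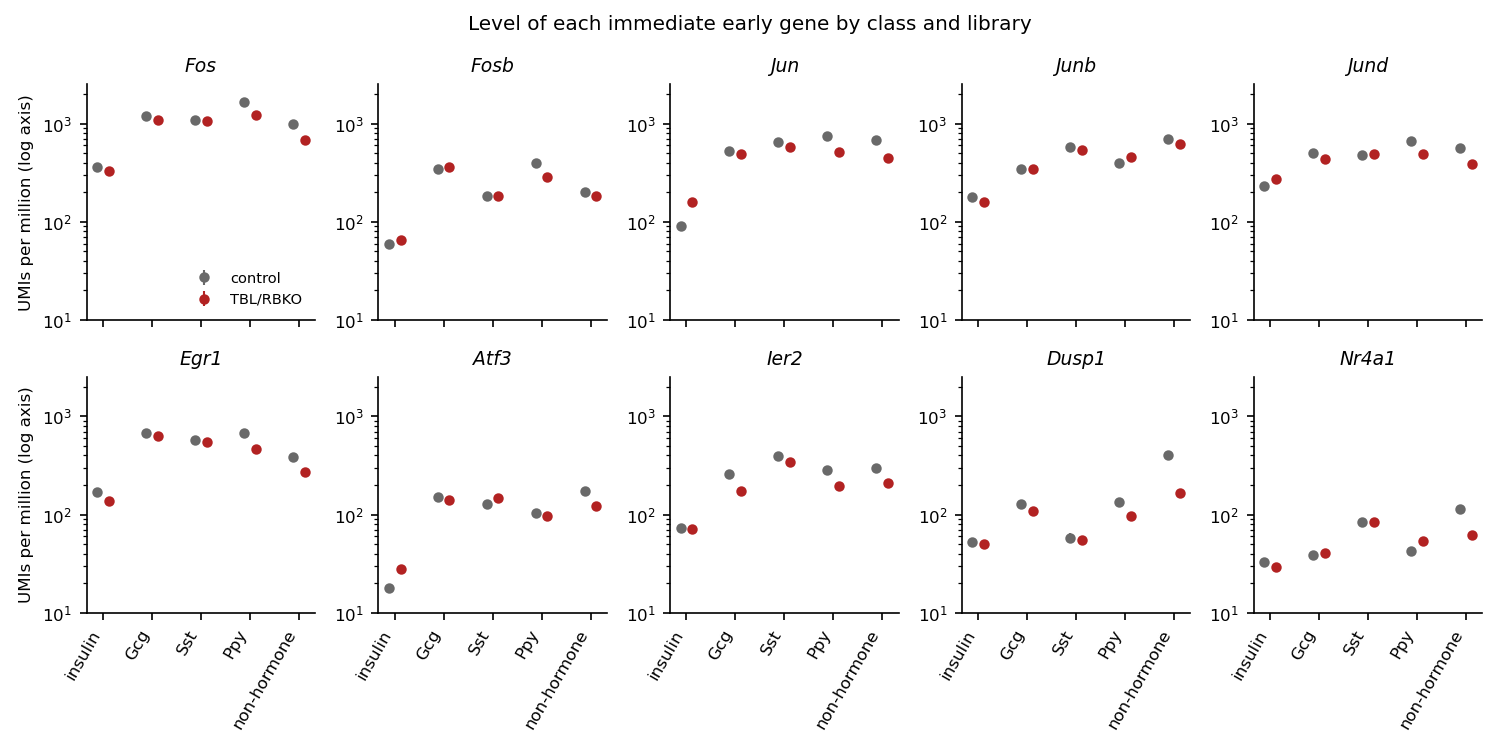
Level of each member (UMIs per 1000000, log axis) in the 5 classes of barcodes, control in grey and TBL/RBKO in red, 1 library each; vertical bars are 95% counting intervals and are mostly smaller than the points. The insulin class is the lowest class for all 10 members in both libraries, and Fos reaches 1662 CPM in the control Ppy class.

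All 10 members were detected in every class of both libraries, and the insulin class had the lowest CPM of each. Fos, the subunit that pairs with Jun, stood at 361 CPM in the control insulin class, against 1203 CPM in the Gcg class, 1082 CPM in the Sst class, 1662 CPM in the Ppy class and 981 CPM in non-hormone barcodes. Its order of classes was the same in the other library, with 325 CPM in the insulin class and 1226 CPM in the Ppy class. Members differed in which class stood highest. In control Egr1, a zinc finger factor, had like levels in the Gcg and Ppy classes (680 and 671 CPM, overlapping intervals), Ier2 was highest in the Sst class (392 CPM), and Dusp1 was highest in non-hormone barcodes (401 CPM) and at 52.1 and 58.2 CPM in the insulin and Sst classes, whose intervals overlapped. Nr4a1, an orphan nuclear receptor, ranged from 32.9 CPM in the insulin class to 114 CPM in non-hormone barcodes.

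The gap between classes depended on what the levels were set against. Over the 10 members summed, the control Gcg class stood 3.30-fold above the insulin class by CPM (4182 and 1266 CPM), and 2.04-fold above it per 1000000 UMIs without the hormones and mitochondrial genes. Per barcode it held 93.8 UMIs of the members against 80.1, which is 1.17-fold. Single members did not all keep this order per barcode. In control the Gcg class held fewer UMIs than the insulin class of Junb (7.77 against 11.4), Jund (11.3 against 14.5), Dusp1 (2.87 against 3.30) and Nr4a1 (0.87 against 2.08). The other members stayed higher per barcode in the Gcg class. In the TBL/RBKO library the Gcg class was 2.94-fold higher by CPM, 2.39-fold higher without hormones and mitochondrial genes, and lower per barcode, with 82.6 against 97.7 UMIs. Insulin UMIs fill the denominator of the insulin class, so its low CPM describes a share of the RNA and not the number of transcripts in a cell. Levels of different members are not ranked here, since 3′ UMIs are counted once per transcript and are not scaled to length.

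**Figure D2:**
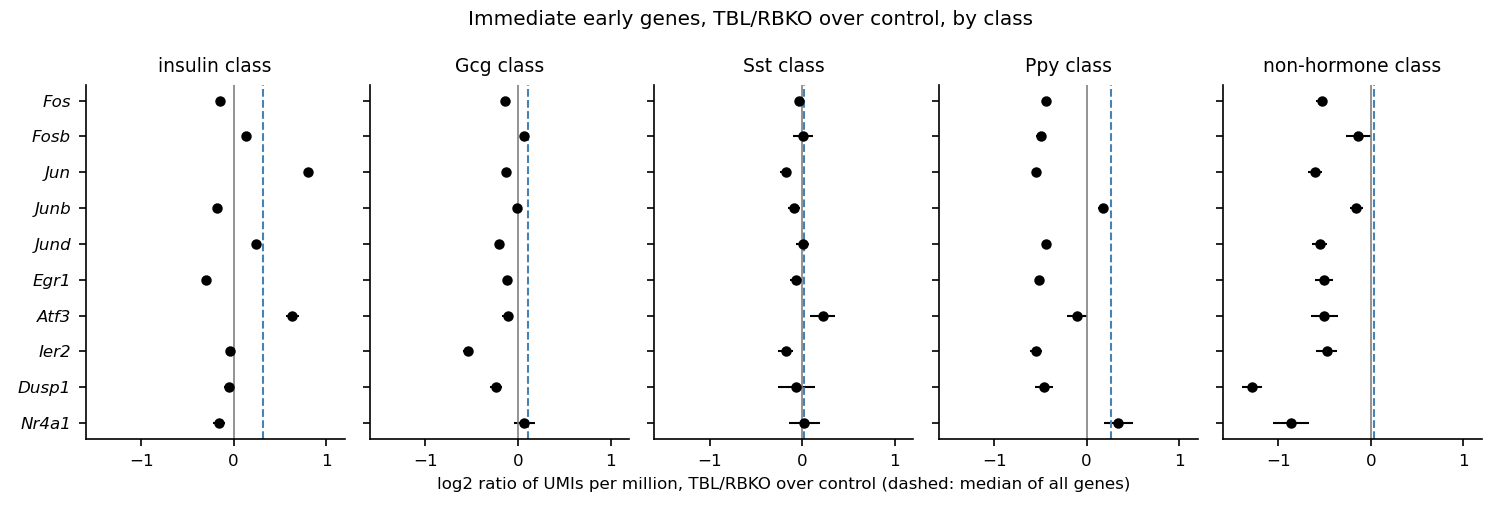
log2 ratio of CPM, TBL/RBKO over control, for each member in each class; horizontal bars are 95% counting intervals, the solid line is 0 and the dashed line the median of all genes of the class. In the insulin class Jun (0.81) and Atf3 (0.64) lie to the right of the dashed line and the other 8 members to its left.

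In the insulin class as a whole the members differed little between the libraries, apart from Jun and Atf3. Together they stood at 1266 CPM in control and 1295 CPM in TBL/RBKO (log2 ratio 0.03, 0.02 to 0.04). Of the 7918 genes with 10 CPM or more in either library, 8.27% were 2-fold or more higher and 1.25% 2-fold or more lower in TBL/RBKO. The corresponding count was 0 of 10 members in either direction. The median log2 ratio of all genes was 0.31 and that of the members -0.04. The members' ratios relative to the former are therefore given too. Per 1000000 UMIs without hormones and mitochondrial genes the split of all genes past 2-fold turned from 655 higher and 99 lower to 315 higher and 350 lower, and the summed members turned from a log2 ratio of 0.03 to -0.45.

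Jun, the AP-1 subunit that also dimerises with itself, was the member with the highest ratio. It stood at 90.6 CPM in control (16502 UMIs) and at 159 CPM in TBL/RBKO (16018 UMIs), a log2 ratio of 0.81 (0.78 to 0.84) and 0.49 relative to the median gene. Without hormones and mitochondrial genes its ratio was 0.33. Atf3, a stress-induced member of the ATF family, stood at 18.0 and 27.9 CPM (0.64, 0.56 to 0.71, or 0.15 without hormones and mitochondrial genes). Jund, which is present at high basal levels in many tissues, stood at 230 and 272 CPM (0.24) and Fosb at 59.7 and 65.5 CPM (0.13), both above 0 yet below the median gene. Without hormones and mitochondrial genes these turned to -0.24 and -0.35.

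The other 6 members were at or below 0 by CPM. Egr1 stood at 169 CPM in control and 137 CPM in TBL/RBKO (-0.30, -0.33 to -0.27), which is -0.62 relative to the median gene, and 5.22% of genes had a lower ratio. Junb stood at 181 and 159 CPM (-0.18), Nr4a1 at 32.9 and 29.5 CPM (-0.16) and Fos at 361 and 325 CPM (-0.15). Dusp1 (52.1 and 50.3 CPM) and Ier2 (72.6 and 70.7 CPM) were within 0.05 of equal, and the interval of Ier2 included 0.

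The insulin classes of the 2 libraries differ in how much insulin their barcodes hold, with medians of 5089 and 2365 insulin UMIs per 10000. The members were therefore set side by side at like insulin. This matched insulin UMIs only, in libraries of which 1 carries Cre at Ins1, and other β-cell genes stayed unlike. Mafa stood at 483 CPM in control and 225 CPM in TBL/RBKO (-1.10) at 5000 or more insulin UMIs per 10000. From 3000 to below 5000 Mafa stood at 483 and 150 CPM (-1.69), and the glucose transporter Slc2a2 at 352 and 89.1 CPM (-1.98). At 5000 or more insulin UMIs per 10000, the range that held 1532 control and 141 TBL/RBKO barcodes, the summed members stood at 972 CPM in control and at 605 CPM in TBL/RBKO (log2 ratio -0.68, -0.72 to -0.65), while the median of the 6714 genes tested was -0.14. From 3000 to below 5000 (1030 and 380 barcodes) they stood at 1432 and 936 CPM (-0.61), beside a median of -0.14. From 1000 to below 3000 (152 and 574 barcodes) they stood at 2833 and 1515 CPM (-0.90), beside a median of -0.13. The barcodes of this last range had medians of 7952.5 detected genes in control and 7521 in TBL/RBKO. In each range the summed level was lower in TBL/RBKO, whereas over the whole class it was 0.03 higher. From 1000 insulin UMIs per 10000 upwards each range had a lower level than the one before it in both libraries, and the range from 1000 to below 3000 held 574 of the 1338 TBL/RBKO barcodes against 152 of 2877 in control.

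**Figure D3:**
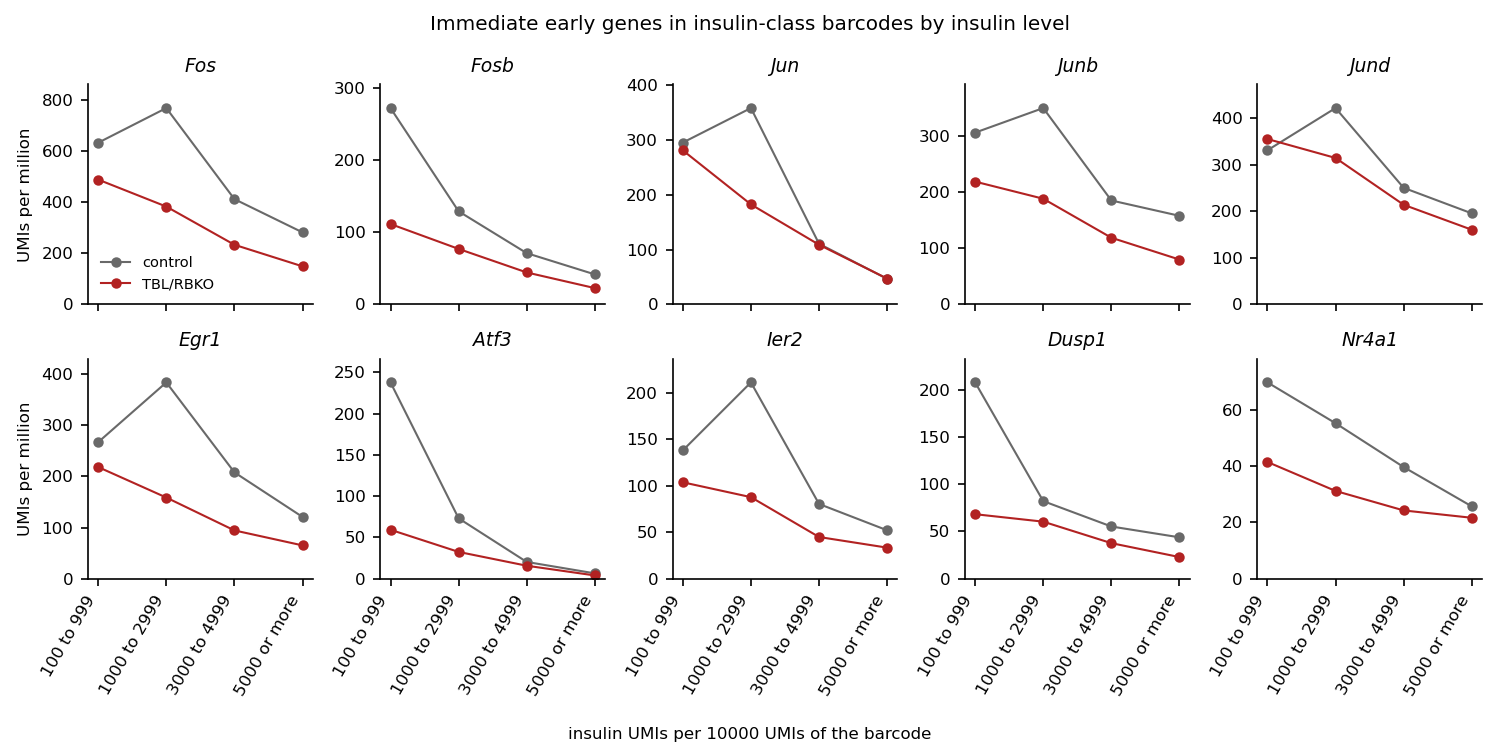
CPM of each member in insulin-class barcodes against insulin UMIs per 10000 (4 ranges), control in grey and TBL/RBKO in red, 1 library each, with no replicate error to show. The red line lies under the grey one in the upper 3 ranges for every member but Jun, whose lines are apart from 1000 to below 3000 (358 and 182 CPM) and meet from 3000 upwards (111 and 109 CPM, then 46.6 and 47.0 CPM).

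Among the AP-1 subunits at 5000 or more, Fos stood at 282 CPM in control and 149 CPM in TBL/RBKO, a log2 ratio of -0.92 (-0.99 to -0.85). Only 1.71% of the genes tested in this range had a lower ratio. Junb stood at 158 and 79.9 CPM (-0.98, -1.08 to -0.89) and Fosb at 41.4 and 22.5 CPM (-0.88, -1.07 to -0.70), with 1.39% and 2.04% of genes lower. Jund was closer to the other genes, at 195 and 160 CPM (-0.29), with 31.8% of genes lower. Jun was near equal, at 46.6 and 47.0 CPM (0.01, -0.12 to 0.14), with 68.9% of genes lower. These 5 subunits thus ranged from near 2-fold lower to equal in the same barcodes.

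Egr1 stood at 121 and 65.1 CPM at 5000 or more (-0.89) and at 208 and 94.4 CPM from 3000 to below 5000 (-1.14, -1.20 to -1.08), where 2.00% and 2.09% of genes were lower. Dusp1, the phosphatase of the feedback, stood at 43.8 and 22.9 CPM (-0.94, -1.12 to -0.75) and at 55.3 and 37.6 CPM (-0.55). Ier2 stood at 52.1 and 33.4 CPM (-0.64) and at 80.5 and 44.9 CPM (-0.84). Nr4a1 differed between these ranges, with 25.7 and 21.7 CPM (-0.25, -0.44 to -0.06) in the upper and 39.7 and 24.3 CPM (-0.71, -0.83 to -0.59) in the lower. Atf3 was under 10 CPM in both libraries at 5000 or more, with 674 and 44 UMIs, and stood at 20.3 and 15.7 CPM from 3000 to below 5000.

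**Figure D4:**
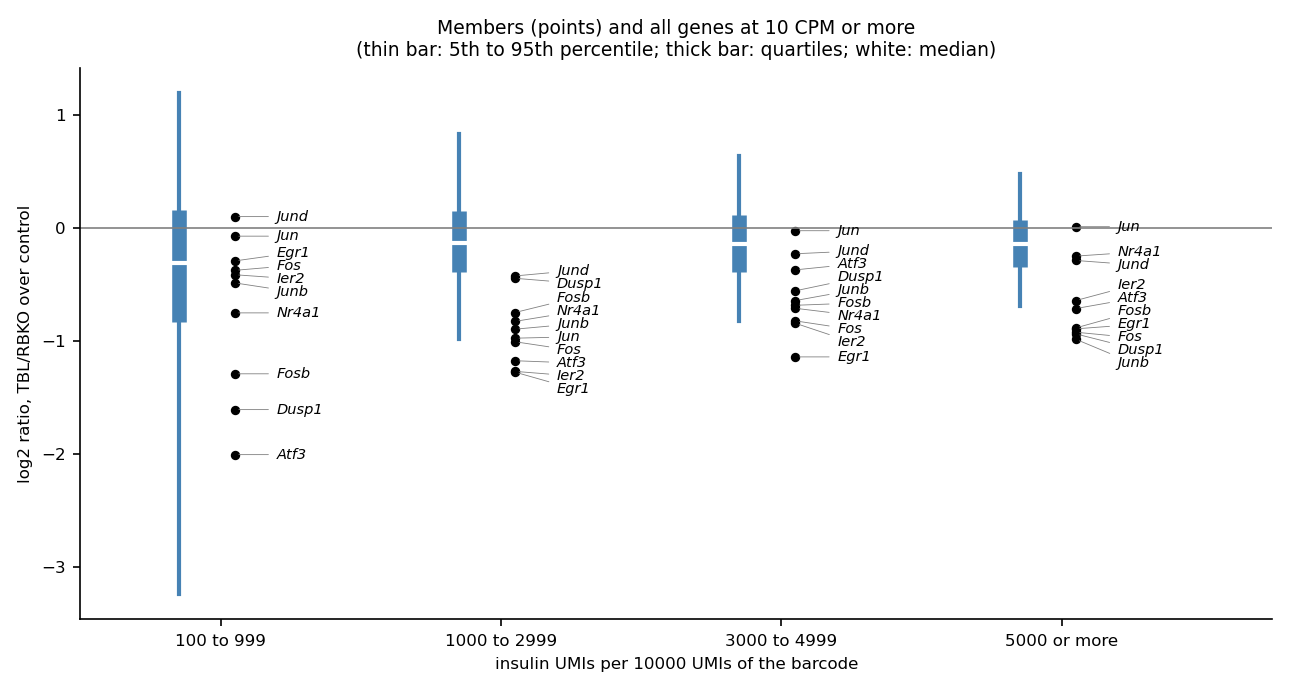
log2 ratio of CPM, TBL/RBKO over control, at like insulin. Black points are the members, blue bars all genes with 10 CPM or more in either library (thin bar 5th to 95th percentile, thick bar quartiles, white mark median). At 5000 or more, Junb, Dusp1, Fos, Egr1 and Fosb lie under the 5th percentile of all genes, Atf3 (under 10 CPM there) lies just under it too, and Jun lies at 0.01.

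The share of genes past 2-fold was small in these ranges. At 5000 or more, 1.31% of genes were 2-fold or more higher and 1.30% lower, and 0 of the 9 members tested were past 2-fold, although Junb (-0.98) came close. From 3000 to below 5000, 2.25% were higher and 2.85% lower, and 1 of 10 members, Egr1, was past 2-fold lower. From 1000 to below 3000, 3.56% were higher and 4.88% lower, and 4 of 10 members were past 2-fold lower: Egr1 (-1.27), Ier2 (-1.27), Atf3 (-1.17) and Fos (-1.01). The members' median log2 ratio in the 3 ranges, from the highest insulin down, was -0.88, -0.66 and -0.93. Below 0 were 8 of 9, 10 of 10 and 10 of 10 members, beside 67.6%, 64.5% and 63.1% of all genes tested. Jun was the exception at 5000 or more, and from 3000 to below 5000 its interval included 0 (-0.08 to 0.04). From 1000 to below 3000, however, Jun stood at 358 CPM in control and 182 CPM in TBL/RBKO (-0.97, -1.03 to -0.92), with 5.16% of genes lower. That value rested on the choice of barcodes, since it was 0.14 in barcodes of 1 hormone only, with 115 control UMIs, and 0.21 below 6000 detected genes. In the same 1-hormone barcodes the intervals of Ier2 (-0.21, -0.65 to 0.26) and Dusp1 (-0.17, -0.54 to 0.22) also included 0. There 4 of 10 members were past 2-fold lower: Atf3 (-1.93), Egr1 (-1.69), Nr4a1 (-1.31) and Fos (-1.13). Of all genes 13.0% were 2-fold or more lower there and 5.79% higher.

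The share of barcodes with a UMI was also lower for Fos, Egr1 and Junb. After each barcode was thinned to 5000 UMIs, which left out 0 barcodes, Fos had a UMI in 70.0% of control and 49.6% of TBL/RBKO barcodes at 5000 or more (67.7 to 72.3 and 41.1 to 58.2, exact binomial intervals). Egr1 had one in 42.2% and 22.0%, and Junb in 48.8% and 26.2%. Jun had one in 19.3% and 17.7%. Unthinned, the barcodes were deeper in TBL/RBKO (median of 71791 UMIs) than in control (55376), and Fos had a UMI in 99.5% of control and 87.9% of TBL/RBKO barcodes. No islet class is known to lack these genes, so no class gives the share that free RNA alone would reach.

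Second hormones and other cell types differed between the ranges and are given beside these values. In the highest insulin range a second hormone was present in 3.39% of control and 7.80% of TBL/RBKO barcodes, the 9 macrophage markers summed to 34.2 and 20.2 CPM, and the 7 ductal markers, which islet cells also express in part, to 393 and 872 CPM. From 1000 to below 3000 a second hormone was present in 82.2% and 79.4% of barcodes. With barcodes of 1 hormone only, the summed log2 ratio was -0.67 at 5000 or more, -0.74 from 3000 to below 5000 and -0.76 from 1000 to below 3000 (27 control barcodes in the last). In that last range the sum then stood at 1615 CPM in control and 954 CPM in TBL/RBKO, against 2833 and 1515 CPM over all its barcodes. Per 1000000 UMIs without hormones and mitochondrial genes, the sum in these 1-hormone barcodes stood at 2371, 2386 and 2313 in control and at 1455, 1362 and 1298 in TBL/RBKO, from the highest insulin down. Single members were not as even, with Atf3 at 14.7, 30.1 and 79.0 and Ier2 at 123, 103 and 62.5 in control. Over all barcodes the sum on this scale was 2413, 2763 and 4243 in control and 1467, 1699 and 2104 in TBL/RBKO.

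Below 1000 insulin UMIs per 10000 the 2 libraries did not hold the same cells. The 163 control barcodes there had a median of 9271 UMIs, all 9 macrophage markers at 10 CPM or more and 4196 CPM summed over them, while the 243 TBL/RBKO barcodes had a median of 54089 UMIs and 65.5 CPM of these markers. The members summed to 2758 and 1946 CPM (-0.50), and Atf3 stood at 238 and 59.3 CPM (-2.00). In this range 6.83% of genes were 2-fold or more higher and 19.6% lower, and 3 of 10 members were lower (Atf3, Dusp1 and Fosb). Classes cut at 1000 insulin UMIs per 10000, which leave these barcodes out, gave a summed log2 ratio of -0.07 and a Jun ratio of 0.65 over the insulin class.

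The share of barcodes with Jun differed between the libraries in the other direction from Fos. Thinned to 5000 UMIs, Jun had a UMI in 26.3% of control and 41.3% of TBL/RBKO insulin-class barcodes, and Fos in 73.6% and 63.2%. Unthinned these shares were 74.2% and 87.5% for Jun and 98.1% and 93.8% for Fos, at median depths of 53346 and 67897 UMIs. The 5% of barcodes with the highest level, unthinned, held 36.2% and 27.5% of the Jun UMIs and 56.7% and 48.9% of the Atf3 UMIs, against 18.9% and 20.4% of the Fos UMIs and 22.0% and 25.1% of those of Nr4a1. A gene with few UMIs per barcode has a larger such share by counting alone, so these shares do not rank the members. Ranked on all UMIs and set aside in each library, the top 5% left Jun at a log2 ratio of 0.98 over the insulin class.

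The barcodes with the highest Jun were high in the other members as well. In control the 144 top barcodes had 832 CPM of Fos against 337 CPM in the other 2733, 411 against 156 CPM of Egr1 and 93.9 against 14.0 CPM of Atf3. In TBL/RBKO the 67 top barcodes had 665 against 311 CPM of Fos, 325 against 129 CPM of Egr1 and 129 against 23.6 CPM of Atf3. Their insulin was lower, with medians of 2854 against 5133 and of 1153 against 2417 UMIs per 10000. The inducible chaperone Hspa1a stood at 50.3 against 2.89 CPM in control and at 274 against 1.89 CPM in TBL/RBKO, and a second hormone was present in 61.1% against 13.9% and in 77.6% against 59.9% of barcodes. The part of these features in the Jun level was not tested.

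Across single barcodes the members moved together weakly. Among the 45 pairs, Fos with Egr1 had the highest Pearson correlation in both libraries and in both the insulin and the Gcg class (0.31 and 0.44 in control and TBL/RBKO insulin-class barcodes, 0.42 and 0.48 in the Gcg class). The median of the pairs was 0.13, 0.17, 0.15 and 0.12 in the same order. Nr4a1 stood apart in the Gcg class, where its lowest pair was at -0.07 in control. The correlation of Fos with the sum of the other 9 members ranked first against all genes that are no members in all 4 sets. These are descriptions over log-transformed counts thinned to 5000 UMIs, of barcodes that share a library, and a gene with more UMIs can reach a higher correlation.

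**Figure D5:**
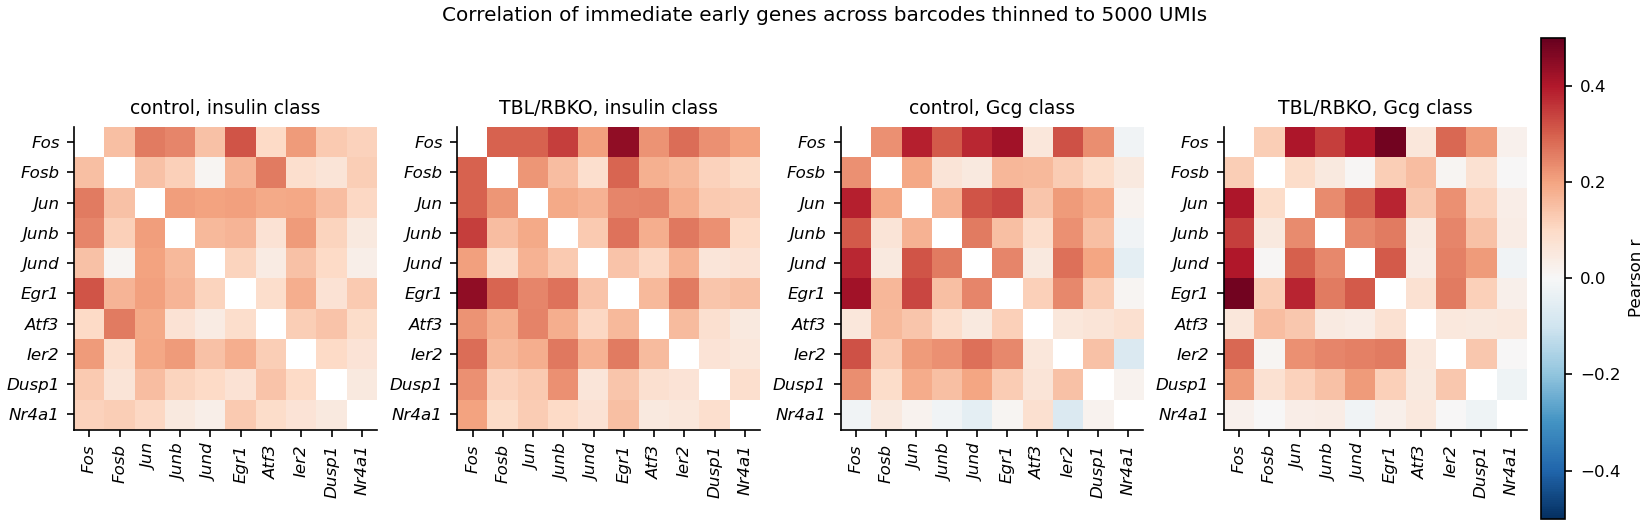
Pearson correlation of each pair of members across barcodes thinned to 5000 UMIs, in control and TBL/RBKO insulin-class and Gcg-class barcodes; red is positive, blue negative, and the diagonal is blank. Fos with Egr1 is the darkest pair in all 4 panels (0.31 to 0.48), and the Nr4a1 row is palest in the Gcg class.

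By the mean of 4 sets the genes most like the summed members, out of 6863, were Tpt1 (0.36), Rpl13 (0.35), Btg2 (0.34), Rps29, Actb, Rpl19 and Actg1 (0.33 each) and Rps3a1 (0.32). The order differed by class. Tpt1 stood at 0.51 in control and 0.54 in TBL/RBKO in the Gcg class, but at 0.18 and 0.21 in the insulin class. Among these genes Btg2 was the highest in the insulin class of both libraries (0.28 and 0.31). Btg2, an antiproliferative gene, is itself an immediate early gene and stood at 282 CPM in control and 336 CPM in TBL/RBKO in the insulin class. Rpl13, Rps29, Rpl19 and Rps3a1 encode ribosomal proteins, and Actb and Actg1 encode the cytoplasmic actins. Tpt1, Rpl13 and Rpl19 had 964 CPM or more in the insulin class of both libraries, which places them among abundant genes.

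In the Gcg class, whose cells the Cre does not target, the summed difference was smaller than at like insulin. The members summed to 4182 CPM in control and 3806 CPM in TBL/RBKO (-0.14, -0.15 to -0.12), with a median of all 8986 genes of 0.10. Of all genes 0.879% were 2-fold or more higher and 0.134% lower, and 0 of 10 members were past 2-fold. Ier2 stood lowest, at 257 and 176 CPM (-0.55, -0.60 to -0.50), and 0.445% of genes had a lower ratio. Fos stood at 1203 and 1092 CPM (-0.14), Egr1 at 680 and 625 CPM (-0.12), Jun at 531 and 485 CPM (-0.13) and Jund at 506 and 439 CPM (-0.20). Fosb (341 and 358 CPM, 0.07, or -0.01 without hormones and mitochondrial genes) was near equal, and the intervals of Junb and Nr4a1 included 0.

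Cut by Gcg in the same way, the summed log2 ratio was -0.24 from 100 to below 1000, -0.13 from 1000 to below 2000 and -0.06 at 2000 or more Gcg UMIs per 10000. Insulin UMIs in Gcg-class barcodes had medians of 97.1 per 10000 in control and 18.6 in TBL/RBKO, and their part in these ratios was not tested.

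In the Sst class the members summed to 4207 and 4017 CPM (-0.07), beside a median of 0.02 over all genes. Here 0.931% of genes were 2-fold or more higher and 0.53% lower, and 0 of 10 members were past 2-fold. Atf3 was highest in ratio (128 and 149 CPM, 0.22, 0.09 to 0.35) and Ier2 and Jun lowest (-0.18 each). Below 6000 detected genes the summed ratio turned to 0.07.

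By CPM over all its barcodes the Ppy class had the lowest summed ratio of the hormone classes, a rank it lost under 3 other choices of barcodes. The members summed to 5113 CPM in control and 3877 CPM in TBL/RBKO (-0.40, -0.41 to -0.38), while the median of all genes was 0.26. Of all genes 7.13% were 2-fold or more higher and 0.474% lower, and 0 of 10 members were past 2-fold. Fos stood at 1662 and 1226 CPM (-0.44), Jun at 746 and 510 CPM (-0.55), Ier2 at 286 and 196 CPM (-0.55) and Egr1 at 671 and 469 CPM (-0.52), each with 3.60% or less of genes lower. Junb (400 and 453 CPM, 0.18, or -0.09 without hormones and mitochondrial genes) and Nr4a1 (42.9 and 54.4 CPM, 0.34) were higher. Tbl1x stood at 103 and 367 CPM in this class, and the Cre features at 0 and 43 UMIs. Hormones took 35.3% of the UMIs of the class in control and a smaller share in TBL/RBKO. The size of the summed ratio rested on the choice of barcodes: it was -0.09 in barcodes of 1 hormone only, -0.05 below 6000 detected genes and -0.06 with Ppy at 1000 or more UMIs per 10000, where the insulin class stood at -0.46, -0.23 and -0.07.

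Non-hormone barcodes held different mixtures of cells in the 2 libraries, and their ratios are given with that in view. The members summed to 4489 and 3143 CPM (-0.51). Of all genes 12.4% were 2-fold or more higher and 7.53% lower, and 1 of 10 members, Dusp1 (401 and 165 CPM, -1.28), was past 2-fold lower. Below 6000 detected genes the summed ratio turned to 0.05 and Dusp1 stood at -0.66. By marker list, endothelial barcodes (23 in control and 35 in TBL/RBKO) stood at 6452 and 5291 CPM of the summed members, stromal barcodes (37 and 110) at 5498 and 3473 CPM and macrophage barcodes (33 and 53) at 1610 and 2529 CPM. Ductal barcodes (3 and 71) stood at 6044 and 4801 CPM and barcodes of the B-cell list (3 and 62) at 1261 and 808 CPM. The 3 control barcodes of that list are not shown to be B cells. In control non-hormone barcodes 1 of its 7 markers was at 10 CPM or more, against 7 in TBL/RBKO. Atf3 stood at 332 CPM in these 3 barcodes and at 0.79 CPM in the 62 of TBL/RBKO. In macrophage barcodes Atf3 was at 342 and 315 CPM and Egr1 at 27.0 and 102 CPM, whereas in endothelial barcodes Egr1 stood at 516 and 354 CPM and Atf3 at 130 and 92.6 CPM. A further 5 control and 86 TBL/RBKO barcodes matched no list, at 883 and 1414 CPM.

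Other immediate early genes were read from a list of 50, of which 27 were at 10 CPM or more in the insulin class. Of these 7 were 2-fold or more higher and 0 lower in TBL/RBKO, beside 8.27% and 1.25% of all genes. The list's median was 0.41, beside 0.31 for all genes. The helix-loop-helix inhibitor Id2 stood at 40.8 and 185 CPM (2.18), the small Maf factor Maff at 3.14 and 13.1 CPM (2.06), the kinase Plk2 at 4.28 and 12.0 CPM (1.49), Ier5 at 16.7 and 42.4 CPM (1.35), Klf10 at 6.01 and 14.2 CPM (1.24) and the Notch target Hes1 at 8.48 and 18.3 CPM (1.11). In the highest insulin range 17 were tested, 0 were 2-fold or more higher and 2 lower, beside 1.31% and 1.30% of all genes. These 2 are Nr4a2 and Id3, named after their values were seen. The list's median there was -0.14, as was that of all genes.

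Among the routes that lead to these genes, 33 of 39 upstream regulators were at 10 CPM or more in the insulin class. One, the p38 kinase Mapk14, was past 2-fold higher (54.4 and 123 CPM, 1.18), beside 8.27% of all genes, and the median was 0.28, beside 0.31. The JNK kinase Mapk10 (113 and 225 CPM, 0.99), the S6 kinase Rps6ka2 (125 and 248 CPM, 0.98), the ERK kinase Mapk3 (55.7 and 85.3 CPM, 0.61), the CREB coactivator Crtc1 (0.55) and the serum response factor coactivator Mrtfa (0.55) followed. In that same range 28 of 33 were below 0, with a median of -0.24 and 0 past 2-fold, beside 67.6% of all genes below 0 and a median of -0.14.

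MAP kinase phosphatases and feedback inhibitors related to Dusp1 had 8 of 17 genes at 10 CPM or more. Of these 2 were past 2-fold higher, beside 8.27% of all genes. Dusp4 stood at 3.26 and 22.7 CPM (2.80) and Dusp5 at 25.1 and 75.9 CPM (1.60), followed by Dusp16 (0.80), Dusp10 (0.79), Dusp8 (0.66) and Spred2 (0.51). With the highest insulin, 1 of 7 was past 2-fold higher, Dusp4, at 2.48 and 15.5 CPM, beside 1.31% of all genes. The list's median there was 0.58, with 3 of the 7 below 0, beside a median of -0.14 for all genes.

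Partners of AP-1 had 10 of 18 measured genes at 10 CPM or more. Mafa, which drives insulin transcription in mature β-cells, stood at 463 and 85.5 CPM (-2.44) and Maff at 2.06 on the log2 scale, followed by Bach1 (0.54), Atf6 (0.53) and Atf4 (0.40). Of the cytosolic heat-shock genes, whose members are also induced when cells are stressed, 11 of 13 were at 10 CPM or more. Past 2-fold higher were 2 of them, beside 8.27% of all genes. The co-chaperone Bag3 stood at 12.4 and 79.9 CPM (2.69) and Hspa1a at 5.22 and 13.0 CPM (1.31), followed by Hsp90ab1 (0.63), Hspa8 (0.55), Hsp90aa1 (0.55) and Dnajb1 (0.55). Outside the 5% of barcodes with the highest Jun, Hspa1a was lower in TBL/RBKO, at 2.89 CPM in control and 1.89 CPM in TBL/RBKO. The list summed to 1748 CPM in control and 2534 CPM in TBL/RBKO. In the highest insulin range 3 of 11 were past 2-fold higher, with a median of 0.20 and 3 below 0, beside 1.31% of all genes past 2-fold higher, a median of -0.14 and 67.6% below 0. Its part in the levels of the members was not tested.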

How the data were processed

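Single-cell libraries were made with Chromium 3′ chemistry. The deposited files are count matrices of genes by barcodes in raw UMIs, written by Cell Ranger 7.1.0 (GRCm39 and mm39 in the submitters' processing notes). UMIs were summed per library and class with Python 3.11.15, numpy 2.4.6, scipy 1.17.1 and pandas 2.3.3, and given as CPM with exact Poisson intervals. Ratios had exact conditional binomial intervals (95%), a method tested on simulated counts. All genes at 10 CPM or more in either library served as background. No model was fitted, since each group has 1 library, and cells are not replicates. Doublets were scored with Scrublet (scanpy 1.11.5). Its automatic threshold marked 84 control barcodes and 1 TBL/RBKO barcode, so it had not worked there, and no doublet was removed except in an alternative. The members, gene lists and comparisons were chosen with earlier results of these data known. Named genes were all members and, from each other list, up to 6 with the largest absolute log2 ratio in the insulin class, with the 8 genes most correlated with the summed members; a gene of these lists is not reported here. Alternatives changed scaling, the limit on genes, the hormone threshold, second hormones, doublets, the mitochondrial limit and weighting. Added after seeing the data were these alternatives within insulin ranges, removal of the top 5% of barcodes per member, Gcg ranges, the values by insulin range of other lists and markers, and barcodes with high Jun.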

Additional observations from a re-analysis of the deposited data

Results flagged for a closer look

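The log2 ratios of TBL/RBKO over control lay on opposite sides of 0 in the insulin class and the Gcg class, with neither counting interval including 0, for 3 members and for the sum. Nr4a1 also differed in sign (-0.16 and 0.07), but its Gcg-class interval included 0. Jun was 0.94 higher in the insulin class than in the Gcg class (0.81 and -0.13), Atf3 0.75 higher (0.64 and -0.11), Jund 0.45 higher (0.24 and -0.20) and the summed members 0.17 higher (0.03 and -0.14). Relative to the median gene of each class, the sum (-0.28 and -0.24) and Jund (-0.07 and -0.31) lay on the same side of 0. Jun (0.49 and -0.23) and Atf3 (0.32 and -0.21) stayed on opposite sides. Without hormones and mitochondrial genes the sum was -0.45 and -0.22, and Jund was -0.24 in the insulin class. With 1 library per group the difference was not tested. At 5000 or more insulin UMIs per 10000, Jun stood at 0.01, Jund at -0.29, and the summed members at -0.68. Atf3, above 0 over the whole insulin class, was below 0 in every insulin range. Its ratios were -2.00, -1.17, -0.37 and -0.71 from the lowest range up, the last under 10 CPM in both libraries.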

How the results depend on the processing

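No paired analysis was possible because each group has 1 library, and for the same reason no library could be left out. Counting error, the 95% intervals, is the precision that depth allows, and it leaves the spread between mice unmeasured. Values here are log2 ratios of TBL/RBKO over control for the summed members unless a gene is named, and the cause of a change between settings was not tested. In the 4 insulin ranges the sum stayed below 0 under every alternative run, between -0.55 and -0.74 from 3000 to below 5000 and between -0.64 and -0.74 at 5000 or more. Over the insulin class Jun stayed above 0, between 0.33 and 0.98. The other sums depended on the choice of barcodes.

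Scaling without hormones and mitochondrial genes gave -0.45 in the insulin class (Fosb -0.35, Jund -0.24), -0.22 in the Gcg class (Fosb -0.012), -0.095 in the Sst class, -0.67 in the Ppy class (Junb -0.087), and -0.39, -1.01 and -0.70 in the lower 3 insulin ranges from the lowest up. Fewer than 6000 detected genes gave -0.23 in the insulin class (Fosb -0.39), -0.070 in the Gcg class, 0.067 in the Sst class (Junb 0.037, Egr1 0.11, Ier2 0.038), -0.047 in the Ppy class, 0.052 in non-hormone barcodes (Fos 0.15, Fosb 0.89, Junb 0.37, Jund 0.029, Egr1 0.38, Ier2 0.12, Nr4a1 0.095), and -0.80, -0.63 and -0.65 in the upper 3 insulin ranges (Jun 0.21 from 1000 to below 3000, in place of -0.97). Barcodes of 1 hormone only gave -0.46 in the insulin class (Fosb -0.41, Jund -0.037), -0.10 in the Gcg class, -0.020 in the Sst class (Jun 0.17), -0.092 in the Ppy class, and -1.21, -0.76 and -0.74 in the lower 3 insulin ranges (Jun 0.14 from 1000 to below 3000). Removing the highest doublet scores gave 0.058 in the insulin class, -0.12 in the Gcg class, and -0.95 and -0.58 from 1000 to below 3000 and from 3000 to below 5000. Classes from 1000 UMIs per 10000 gave -0.074 in the insulin class, -0.075 in the Gcg class, 0.075 in the Sst class (Junb 0.073, Egr1 0.14, Ier2 0.047) and -0.059 in the Ppy class, and no value for non-hormone barcodes or the lowest insulin range. A mitochondrial share under 5% gave 0.023 in the insulin class, -0.098 in the Gcg class, -0.24 in the Ppy class, -0.43 in non-hormone barcodes, and -0.65 and -0.86 in the lower 2 insulin ranges. Each barcode weighted equally gave 0.0055 in the insulin class (Fosb -0.11), -0.098 in the Gcg class (Atf3 0.0096), 0.0061 in the Sst class (Junb 0.015, Egr1 0.020), -0.25 in the Ppy class, -0.39 in non-hormone barcodes (Fosb 0.43), and -0.87, -0.55 and -0.64 in the upper 3 insulin ranges. Without the top 5% of barcodes the sum was -0.43 in the Ppy class, -0.56 in non-hormone barcodes, and -0.37, -0.95, -0.67 and -0.74 in the insulin ranges from the lowest up.

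Of the alternatives for single members, 28 changed sign, 308 moved by more than the counting interval and 364 did not. Counts of all genes past 2-fold at 50 CPM or more in place of 10 were 317 higher and 32 lower in the insulin class (655 and 99), 25 and 2 in the Gcg class (79 and 12), 24 and 8 in the Sst class (86 and 49), 301 and 12 in the Ppy class (616 and 41) and 392 and 440 in non-hormone barcodes (1258 and 765). Without hormones and mitochondrial genes they were 315 and 350 in the insulin class and 422 and 146 in the Ppy class.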

Other observations

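Barcodes outside the filter also held the members. The 631 control barcodes with 2500 genes or fewer and under 10% mitochondrial UMIs summed to 1452 CPM and the 557 such barcodes of the TBL/RBKO library to 1563 CPM. The 1689 and 1097 barcodes with 10% or more mitochondrial UMIs summed to 1446 and 1339 CPM, beside 1927 and 2348 CPM in the kept barcodes. Atf3 stood higher outside the filter than inside it in both libraries, at 65.4 and 93.1 CPM in barcodes of few genes, 58.1 and 87.7 CPM in those of high mitochondrial share, and 43.3 and 69.9 CPM in the kept ones.

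Taken over all kept barcodes, the insulin class held 51.9% of the members' UMIs in control and 31.7% in TBL/RBKO, while it held 79.0% and 57.4% of all UMIs. The Ppy class held 12.8% and 19.7% of the members' UMIs and 4.82% and 11.9% of all UMIs.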
